A study of Homo sapiens with 30 samples.

Results

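The small RNA of 5 U-87 MG lines, each carrying an inducible LARP6 variant, was compared with that of the parental cells. The genes compared were those annotated in GENCODE as miRNA, snoRNA, snRNA, scaRNA or misc_RNA with at least 50 counts in every one of the 6 small RNA libraries. Of 62750 gene identifiers counted, 6980 were of these 5 types, 1357 of those had a count in some small RNA library and 216 met the minimum. These 216 genes, called members here, were 172 microRNA genes, 33 small nucleolar RNA (snoRNA) genes, 7 genes of the type misc_RNA and 4 small Cajal body RNA (scaRNA) genes. No spliceosomal snRNA gene met the minimum. The 2 members nearest to the limit were SNORA58, with a lowest count of 50, and MIR3661, with 51, while MIR190A and MIR3128 missed it with 49.

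U-87 MG cells are a long-established line from a human glioblastoma, and LARP6 is an RNA-binding protein best known for binding collagen mRNAs. The study asked which regions of LARP6 bind RNA in living cells, and made 18 iCLIP samples (iCLIP maps protein–RNA contacts after UV crosslinking) and 12 input RNA libraries. Each of the 6 cell populations gave 1 small RNA library of 50 nt reads and 1 long RNA library of 150 nt read pairs. The 5 lines were U-87 MG cells transduced with a lentiviral vector and selected with puromycin, and the sources used here do not say that they were cloned. They carried myc-tagged full-length LARP6 (FL), or LARP6 without the disordered N-terminal region (ΔNTR), without the folded La-module (ΔLa-module), without both of these (ΔNTD) or without the C-terminal region (ΔCTR). The labels of the input libraries name the lines NTR, NTD, LaMod and CTR, without the delta. All lines kept their endogenous LARP6. Per the labels, doxycycline at 60 ng/mL for 24 h was given to every sample, the parental one included. The parental cells were not transduced, so transduction, selection and an induced transgene were shared by all 5 lines and cannot be told apart in a comparison of the lines with the parental cells. The transgene was codon-optimised, and the counts of the LARP6 gene (1435 in the parental long RNA library and 1398 to 1872 in the lines) therefore do not check the labels.

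MicroRNAs are about as long as a short sequencing read. They are cut from hairpin precursors and repress mRNAs that pair with their seed, the bases from position 2 to position 8. The C/D box snoRNAs guide 2′-O-methylation and the H/ACA box snoRNAs guide pseudouridylation, mostly of ribosomal RNA, while scaRNAs do the same for spliceosomal RNA. Most snoRNAs are processed from introns of host genes. Y RNAs and vault RNAs are short RNA polymerase III transcripts.

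The sequences of the RNAs that the results turn on are shown first. Mature microRNAs are from RefSeq (GRCh38.p14), written with U and with the seed in capitals. Of the 172 microRNA members, 164 had a mature sequence there. Counts per gene do not separate the 2 arms of a hairpin, so the arm shown is not necessarily the one sequenced. The gene of miR-100 held most of the gene counts of every library, and miR-99a and miR-99b share its seed:
miR-100-5p: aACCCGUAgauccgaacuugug
miR-99a-5p: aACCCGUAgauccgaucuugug
miR-99b-5p: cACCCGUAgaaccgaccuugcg

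The microRNAs of the imprinted cluster at 14q32 were lower in all 5 lines. Some of its genes are shown with 1 arm each, and both arms are given for MIR379 and MIR411, the only pair of the 12 members of the cluster to share a seed, on the 3p arm:
miR-127-3p: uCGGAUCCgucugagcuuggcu
miR-381-3p: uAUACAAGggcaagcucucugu
miR-409-3p: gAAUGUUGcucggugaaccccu
miR-654-3p: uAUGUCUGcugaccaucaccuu
miR-494-3p: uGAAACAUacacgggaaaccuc
miR-758-3p: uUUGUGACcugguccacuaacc
miR-379-5p: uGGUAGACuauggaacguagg
miR-379-3p: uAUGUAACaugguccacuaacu
miR-411-5p: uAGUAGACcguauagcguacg
miR-411-3p: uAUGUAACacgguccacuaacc

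MIR145 and MIR210 are shown because each is set beside its host gene in a plot of the report, MIR210 having been picked after its values were seen:
miR-145-5p: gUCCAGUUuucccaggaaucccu
miR-210-3p: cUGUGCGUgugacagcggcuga

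SNORD48, SNORD1B and SNORD17, C/D box snoRNAs that were higher in the lines, are shown by their first and last 24 bases (GENCODE transcripts, GRCh38, written with T), with the C box TGATGA and the D box CTGA in capitals where these exact letters were found:
SNORD48 first bases: agTGATGAtgaccccaggtaactc
SNORD48 last bases: tgccatcaccgcagcgctCTGAcc
SNORD1B first bases: ctgagtccaTGATGAtttcaagtt
SNORD1B last bases: ggaatttgaatatCTGAaactcag
SNORD17 first bases: gtgaaaTGATGAttcagtttatcc
SNORD17 last bases: gatgagtggtgaaaatCTGAtcac

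Searched on the transcribed strand, TGATGA lay within the first 30 bases and CTGA within the last 30 of 24 of the 29 C/D box members (82.8%). The same held for 65.5% of 313 annotated SNORD genes and 0.467% of 214 annotated SNORA genes. The Y RNA members RNY1 and RNY3 are shown by their first 24 bases, with the bases that lay under the FL iCLIP peak in capitals:
RNY1 first bases: GGCTGGTCcgaaggtagtgagtta
RNY3 first bases: GGCTGGTccgagtgcagtggtgtt

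Each line had 1 library, so no difference was tested, and no value has a replicate error. Values are counts scaled to a library total of 1000000 (CPM), and a member was called higher or lower when its CPM differed at least 2-fold from that in the parental cells. Where a value is followed by a range, this is the exact 95% interval of the ratio of 2 counts. It covers counting error only, and the sources used here state no molecular identifiers for these libraries. All 5 comparisons used the same parental library, so an unusual parental count would appear in all of them. In bulk RNA, fewer cells of a type and less RNA per cell cannot be told apart. Reads were 50 nt long, while SNORD48 has 64 bases, SNORD1B 84, RNY1 113 and SNORD17 237. Counts of such genes do not separate whole RNAs from fragments, so they need not follow the level of the whole RNA.

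The small RNA libraries held 6181270 to 10307756 counts in genes. MIR100 alone took 69.5% of them in the parental cells, 75.5% in FL, 65.8% in ΔNTR, 67.6% in ΔNTD, 73.6% in ΔLa-module and 68.3% in ΔCTR. Of all uniquely mapped reads, counted in a gene or not, it took 22.0 to 33.4%. For each count of another gene there were 2.28 MIR100 counts in the parental cells, 3.09 in FL and 2.79 in ΔLa-module, and 1.93 to 2.16 in the other lines. A total that includes MIR100 therefore lowers the log2 change of every member by 0.32 in FL and 0.21 in ΔLa-module and raises it by 0.17 in ΔNTR, 0.09 in ΔNTD and 0.06 in ΔCTR. CPM was computed on the total without MIR100 (1959085 to 3141573 counts), and counts of calls are given with the total including it as well.

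**Figure D1:**
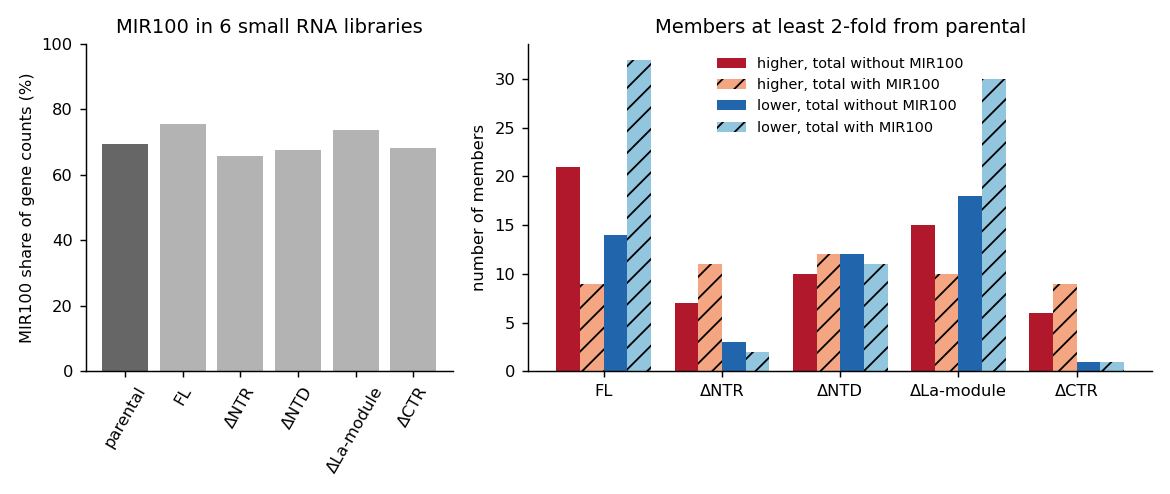
Left, the share of MIR100 in the gene counts (%, bars) of the 6 small RNA libraries. Right, the number of the 216 members at least 2-fold higher (red) or lower (blue) than in parental cells in each line, with the total without MIR100 (plain) or with it (hatched). MIR100 took 65.8 to 75.5% of the counts, and including it raised the number of lower members in FL from 14 to 32 and in ΔLa-module from 18 to 30.

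The FL and ΔLa-module libraries stood apart from the others. After centring each pair of libraries on its median, the median absolute log2 difference over the members was 0.18 between these 2 libraries, with 1 member over 2-fold, whereas each differed from the other 4 libraries by 0.31 to 0.44. The smallest distance of all pairs was 0.13, between ΔNTR and ΔCTR. Parental cells lay 0.16 from ΔCTR but 0.31 from ΔNTD, with 24 members over 2-fold. In FL and ΔLa-module, 36.8 and 37.7% of reads were counted in genes, against 28.2 to 34.1% elsewhere. Their part in the results was not tested, and results are given below with and without these 2 libraries. As a check of identity, the long RNA libraries of all 6 populations held 194113 to 222278 counts of VIM and 52031 to 64266 of CD44. They also held 8661 to 11295 counts of EGFR and 1299 to 1653 of NES, but of the neural and glial genes OLIG2 had 41 to 70, FABP7 8 to 17, and GFAP, SOX2 and S100B at most 6.

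The lines differed in how many members were 2-fold from parental cells. In FL 21 members were higher and 14 lower, where 9.32 and 4.66% of all 322 genes with the minimum, members included, were called. In ΔLa-module 15 were higher and 18 lower (background 8.07 and 6.21%). In ΔNTD 10 were higher and 12 lower (background 4.97 and 3.73%). In ΔNTR 7 were higher and 3 lower (background 4.35 and 0.932%), and in ΔCTR 6 were higher and 1 lower (background 4.66 and 0.311%). Once MIR100 was included in the total, 9 were higher and 32 lower in FL (background 4.04 and 10.6%), and 10 were higher and 30 lower in ΔLa-module (background 4.66 and 10.6%). The numbers were then 12 and 11 in ΔNTD (background 7.14 and 3.42%), 11 and 2 in ΔNTR (background 8.39 and 0.621%), and 9 and 1 in ΔCTR (background 5.59 and 0.311%). With the total without MIR100, the share of members called higher was 9.72% in FL and 2.78 to 6.94% in the other lines, near the background or below it. The share called lower was 6.48% in FL, 5.56% in ΔNTD and 8.33% in ΔLa-module, and in ΔCTR it was a single gene. Of the 106 genes of other types, 0 to 2 were called lower in a line with the total without MIR100. The median log2 change of the members was close to 0 in every line, between -0.03 and -0.10.

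**Figure D2:**
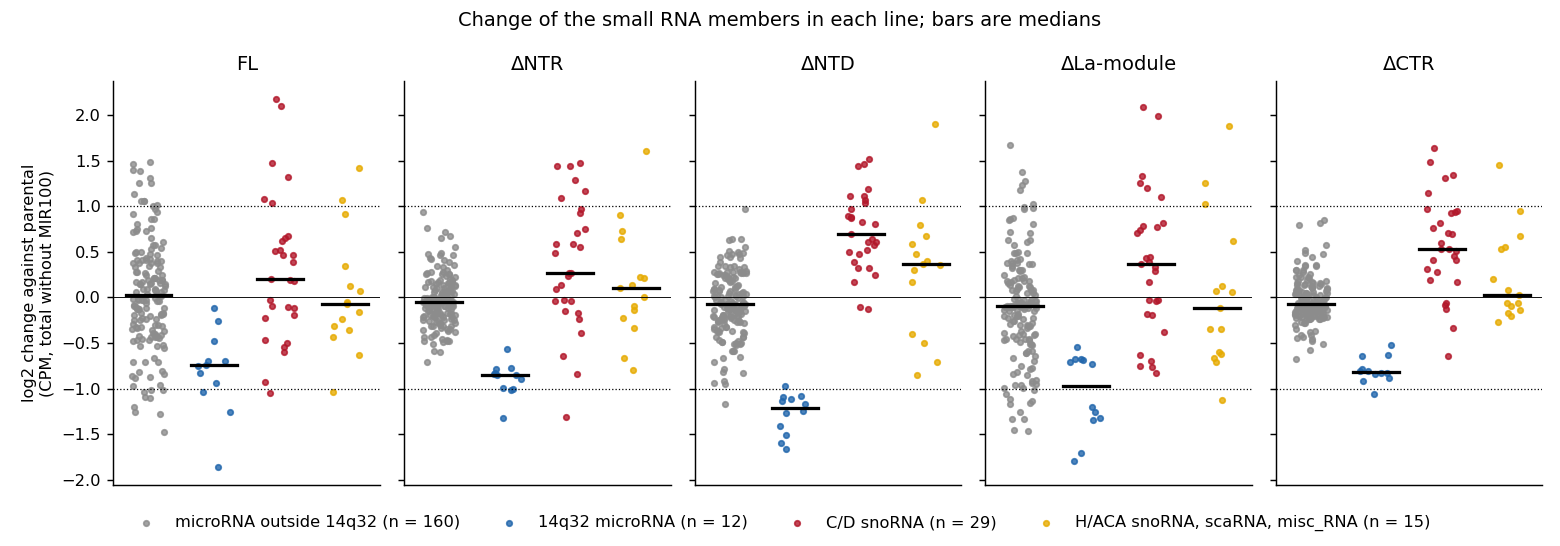
The log2 change of each of the 216 members against parental cells (y axis, CPM on the total without MIR100) in the 5 lines, by class; points are genes, short bars are medians and dotted lines mark 2-fold. The 12 microRNA genes of 14q32 (blue) lie below 0 in each line, and the C/D box snoRNAs (red) have medians of 0.20 to 0.70.

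Parental cells lay outside the range of the 5 lines for 86 members. They were above all 5 lines for 51 members (23.6%), where the background was 17.1%, and below all 5 for 35 (16.2%), where the background was 24.8%. Including MIR100 in the total gave 37 above (background 12.4%) and 30 below (background 20.2%), and TMM factors gave 74 above (background 27.6%) and 25 below (background 17.7%). Without the FL and ΔLa-module libraries, 70 members were above (background 24.8%) and 52 below (background 33.5%). Of the 172 microRNA genes, 46 (26.7%) had parental cells on top, and outside 14q32 it was 34 of 160 (21.2%), or 13.1% with MIR100 in the total, near the background. Of the 51 members with parental cells on top, 46 were microRNA genes, 12 of them from 14q32, 2 were C/D box snoRNA genes and 3 were Y_RNA copies. Of the 35 with parental cells at the bottom, 17 were microRNA genes, 14 were C/D box snoRNA genes and 1 was an H/ACA box snoRNA gene, and the others were RNY1, VTRNA1-2 and SCARNA6.

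The microRNA cluster of 14q32 was the group with the most uniform difference. It lies on the plus strand at chr14:100814491-101066801 (GRCh38), downstream of the imprinted non-coding RNA gene MEG3, and is transcribed from the maternal chromosome. Of 53 microRNA genes annotated there, 42 had a count and 12 were members. All 12 were lower than in parental cells in all 5 lines, with the total without MIR100, with MIR100 and with TMM factors. Without the FL and ΔLa-module libraries the same holds by construction. Their median log2 changes were -0.74 in FL, -0.85 in ΔNTR, -1.21 in ΔNTD, -0.96 in ΔLa-module and -0.82 in ΔCTR, beside -0.03 to -0.10 for all members.

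The member of the cluster with the most counts was MIR127 (ENSG00000207608.3). Its CPM was 3754 in the parental cells, 2256 in FL, 2081 in ΔNTR, 1581 in ΔNTD, 2265 in ΔLa-module and 2092 in ΔCTR. The line closest to the parental value was ΔLa-module, with a log2 change of -0.73 (-0.78 to -0.68). MIR381 was 2420 in the parental cells, 2230 in FL, 1416 in ΔNTR, 1008 in ΔNTD, 1660 in ΔLa-module and 1381 in ΔCTR. MIR381 in FL was the smallest difference of the cluster, with a log2 change of -0.12. MIR379 was 1353 in the parental cells, 1128 in FL, 672 in ΔNTR, 427 in ΔNTD, 829 in ΔLa-module and 732 in ΔCTR. All 3 were lowest in ΔNTD.

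The difference was larger in the least-changed line for MIR758 than for any other member with parental cells on top. MIR758 had 178 counts in parental cells and 53, 52, 60, 51 and 59 in FL, ΔNTR, ΔNTD, ΔLa-module and ΔCTR. These were 56.7 CPM in parental cells and 19.9 to 30.1 CPM in the lines, a log2 change of -0.91 (-1.36 to -0.48) in ΔCTR and of -1.20 to -1.51 in the other 4 lines. MIR654 was 586 CPM in parental cells and 235 to 330 in the lines. MIR409 was 735 CPM in parental cells and 374 to 458 in the lines. In neither did a line reach the parental value, and the log2 change of MIR409 stayed within -0.68 to -0.97.

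MIR494 was lowest in FL and ΔLa-module. It was 167 CPM in the parental cells, 96.9 in ΔNTR, 78.8 in ΔNTD and 97.0 in ΔCTR, but 46.2 in FL and 51.2 in ΔLa-module. MIR136 was lowest in ΔLa-module alone. It was 109 CPM in the parental cells, 56.5 in FL, 60.2 in ΔNTR, 48.3 in ΔNTD, 31.4 in ΔLa-module and 52.1 in ΔCTR. MIR411, MIR370, MIR493 and MIR369 completed the 12, with log2 changes between -0.48 and -1.59. The line called lower for the most members was ΔNTD, with 11 of 12, followed by ΔLa-module with 6, FL with 3, ΔNTR with 2 and ΔCTR with 1 (background 3.73, 6.21, 4.66, 0.932 and 0.311%). These counts depend on the scaling. With MIR100 in the total they were 10 in ΔNTD, 9 in FL, 6 in ΔLa-module, 1 in ΔNTR and 1 in ΔCTR (background 3.42, 10.6, 10.6, 0.621 and 0.311%). TMM factors gave 12 in ΔNTD, 9 in ΔCTR, 6 in ΔLa-module, 4 in FL and 4 in ΔNTR. Of all 322 genes with the minimum, 21, 9, 26, 22 and 5 were then lower in the same order.

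Genes of the locus below the minimum count were included next. Summed over all 53 genes of the locus, counts were 33559 in the parental cells, 16512 in FL, 13573 in ΔNTR, 13605 in ΔNTD, 13023 in ΔLa-module and 11857 in ΔCTR. In CPM these were 0.69 times (0.68 to 0.71) the parental value in FL, 0.55 times in ΔNTR, 0.42 times in ΔNTD, 0.59 times in ΔLa-module and 0.57 times in ΔCTR. The 41 genes of the locus that were no members gave 0.60, 0.55, 0.54, 0.38 and 0.56 times in the same order. Of the 41, 20 had at least 50 counts over all libraries together, and 16 of these were highest in parental cells. At the same summed minimum, 79 of all 329 microRNA genes (24%), the locus included, were highest in parental cells.

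**Figure D3:**
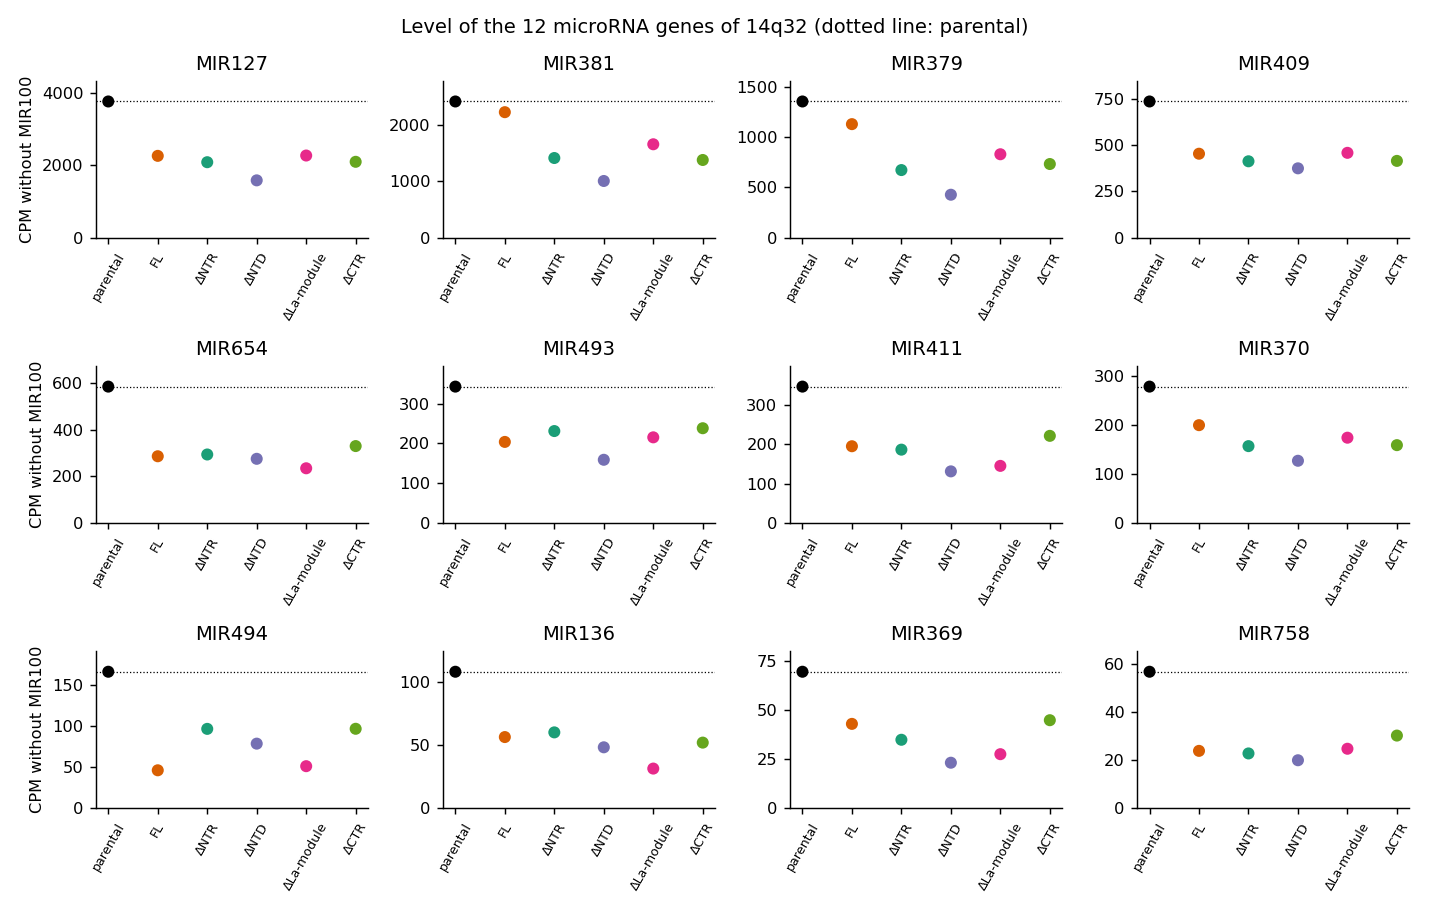
CPM (y axis, total without MIR100, from 0) of the 12 microRNA members of 14q32 in the 6 small RNA libraries; the dotted line is the parental value. Every point of a line lies below it, from MIR381 in FL (2230 against 2420 CPM) to MIR494 in FL (46.2 against 167 CPM).

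The long RNA libraries hold the host transcripts of the locus, though at low counts. MEG8, which spans MIR379, MIR411, MIR758 and MIR494, had 80 counts in the parental cells, 48 in FL, 62 in ΔNTR, 48 in ΔNTD, 52 in ΔLa-module and 39 in ΔCTR. Scaled to all long RNA gene counts, these were 0.57 (0.39 to 0.83), 0.83 (0.58 to 1.17), 0.58 (0.39 to 0.83), 0.60 (0.42 to 0.87) and 0.48 (0.32 to 0.72) times the parental value, and the interval reached 1 in ΔNTR only. MEG3 had 116 counts in the parental cells, 119 in FL, 123 in ΔNTR, 68 in ΔNTD, 87 in ΔLa-module and 104 in ΔCTR. It was 0.56 times (0.41 to 0.77) the parental value in ΔNTD and 0.70 times (0.52 to 0.93) in ΔLa-module, and its interval included 1 in the other lines.

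MIR145 (chr5:149430646-149430733, plus strand), a microRNA typical of smooth muscle and other mesenchymal cells, was also lower in all 5 lines. It was 1420 CPM in the parental cells, 618 in FL, 1001 in ΔNTR, 744 in ΔNTD, 517 in ΔLa-module and 1022 in ΔCTR. The log2 change ran from -0.47 (-0.55 to -0.40) in ΔCTR to -1.46 (-1.55 to -1.36) in ΔLa-module. Its host gene CARMN had 260 long RNA counts in the parental cells, 170 in FL, 195 in ΔNTR, 125 in ΔNTD, 161 in ΔLa-module and 169 in ΔCTR, which was 0.46 (0.37 to 0.57) to 0.80 (0.66 to 0.97) times the parental value. Both RNAs were thus highest in the parental cells, but the microRNA was lowest in ΔLa-module and its host in ΔNTD.

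MIR210 (chr11:568089-568198, minus strand), a microRNA induced by low oxygen, was higher in all 5 lines. It and its host were singled out after their values were seen. MIR210 was 2020 CPM in the parental cells, 2338 in FL, 3867 in ΔNTR, 3969 in ΔNTD, 2827 in ΔLa-module and 3648 in ΔCTR. Under the total with MIR100 the FL value turned to a log2 change of -0.11, from 0.21 without it. The host gene MIR210HG had 76 long RNA counts in parental cells and 154, 259, 194, 212 and 165 in FL, ΔNTR, ΔNTD, ΔLa-module and ΔCTR. These were 1.94 (1.46 to 2.58) to 3.63 (2.80 to 4.76) times the parental value, and FL was the lowest of the 5 lines for both RNAs.

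**Figure D4:**
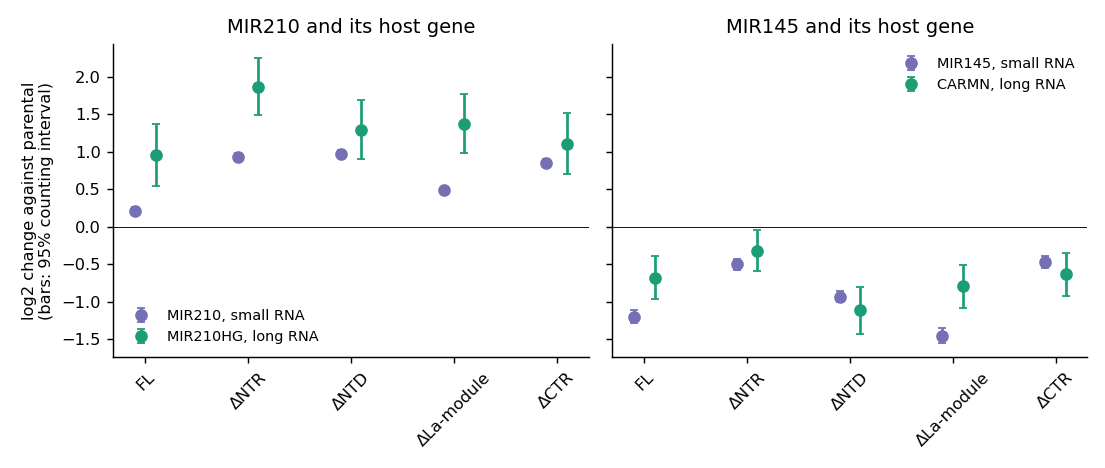
The log2 change against parental cells (y axis) of MIR210 (left) and MIR145 (right) in the small RNA libraries (purple) and of their host genes MIR210HG and CARMN in the long RNA libraries (green); bars are 95% counting intervals. Both RNAs of the MIR210 pair lie above 0 in every line and both of the MIR145 pair below 0.

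Over the members as a whole, the change of a small RNA was set beside that of its host. For 141 members with 1 host gene of at least 50 long RNA counts in every library, Spearman's rho across members was 0.02 in FL, 0.28 in ΔNTR, 0.34 in ΔNTD, 0.17 in ΔLa-module and 0.37 in ΔCTR. These members lay in 120 hosts, some shared by several members, and all changes shared the parental libraries, so the values are descriptions. At most 2 of these members had a host that itself differed 2-fold from parental cells in a line. For MIR100, the host MIR100HG differed by 1.06 to 1.12 times in the 5 lines.

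The C/D box snoRNAs tended to be higher in the lines. Of 29 members, parental cells were below all 5 lines for 14 (background 24.8%) and above them for 2, SNORD94 and SNORD13 (background 17.1%). This was not particular to snoRNAs. For the 106 genes of other types, parental cells were below all 5 lines for 45 (42.5%) and above them for 4 (3.77%). The median log2 change of those genes was 0.26 in FL, 0.19 in ΔNTR, 0.27 in ΔNTD, 0.24 in ΔLa-module and 0.30 in ΔCTR. The median log2 change of the C/D box members was 0.20 in FL, 0.27 in ΔNTR, 0.70 in ΔNTD, 0.36 in ΔLa-module and 0.53 in ΔCTR. With MIR100 in the total it was -0.11 in FL, so that the direction in FL depends on the scaling. The number with parental cells at the bottom was 13 with MIR100 in the total (background 20.2%, genes of other types 33%) and 14 with TMM factors (background 17.7%, genes of other types 30.2%). Without the FL and ΔLa-module libraries it was 18 of 29, where the background was 33.5%. All snoRNA counts together made up 1.03% of counts without MIR100 in the parental cells, 2.13% in FL, 1.67% in ΔNTR, 1.68% in ΔNTD, 2.12% in ΔLa-module and 1.74% in ΔCTR. SNORD48 and SNORD1B carried much of this share, and without them, a choice made after seeing the data, it was 0.80% in the parental cells, 1.11% in FL, 1.11% in ΔNTR, 1.33% in ΔNTD, 1.17% in ΔLa-module and 1.20% in ΔCTR.

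SNORD48 and SNORD1B were the highest members by log2 change in FL and ΔLa-module. SNORD48 (chr6:31835263-31835326, plus strand) was 1227 CPM in the parental cells, 5264 in FL, 2606 in ΔNTR, 1866 in ΔNTD, 4879 in ΔLa-module and 2332 in ΔCTR. SNORD1B (chr17:76561109-76561192, plus strand) was 1098 CPM in the parental cells, 4944 in FL, 2991 in ΔNTR, 1640 in ΔNTD, 4656 in ΔLa-module and 3065 in ΔCTR. Both were about 4-fold higher in FL (4.29-fold and 4.50-fold) and in ΔLa-module (3.98-fold and 4.24-fold), the 2 libraries that stood apart, and both were least raised in ΔNTD (1.52-fold and 1.49-fold). SNORD48 was still 1.90-fold and SNORD1B 2.79-fold higher in ΔCTR.

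SNORD17 and SNORD70 differed more evenly. SNORD17, an unusually long C/D box snoRNA, was 377 CPM in the parental cells, 945 in FL, 1044 in ΔNTR, 671 in ΔNTD, 947 in ΔLa-module and 958 in ΔCTR. SNORD70, in an intron of NOP58, was 82.8 CPM in the parental cells, 230 in FL, 186 in ΔNTR, 178 in ΔNTD, 198 in ΔLa-module and 159 in ΔCTR. SNORD104 was 3262 CPM in parental cells and 4879 to 5974 in the lines. For all of them the lowest line was above the parental value.

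SNORD66, SNORD69, SNORD93, SNORD105, SNORD12C, SNORD82, SNORD111, SNORD71 and SNORD88A made up the rest of the 14. Of these, SNORD105 and SNORD88A were 2-fold higher in ΔNTR, ΔNTD and ΔCTR but not in FL or ΔLa-module. SNORD105 was 31.8 CPM in the parental cells, 43.9 in FL, 86.4 in ΔNTR, 87.4 in ΔNTD, 54.6 in ΔLa-module and 99.0 in ΔCTR. SNORD88A was 29.6 CPM in the parental cells, 33.6 in FL, 72.0 in ΔNTR, 84.8 in ΔNTD, 52.2 in ΔLa-module and 73.5 in ΔCTR. Under the total with MIR100, SNORD88A and SNORD71 were no longer higher in FL (log2 change of -0.13 for both).

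**Figure D5:**
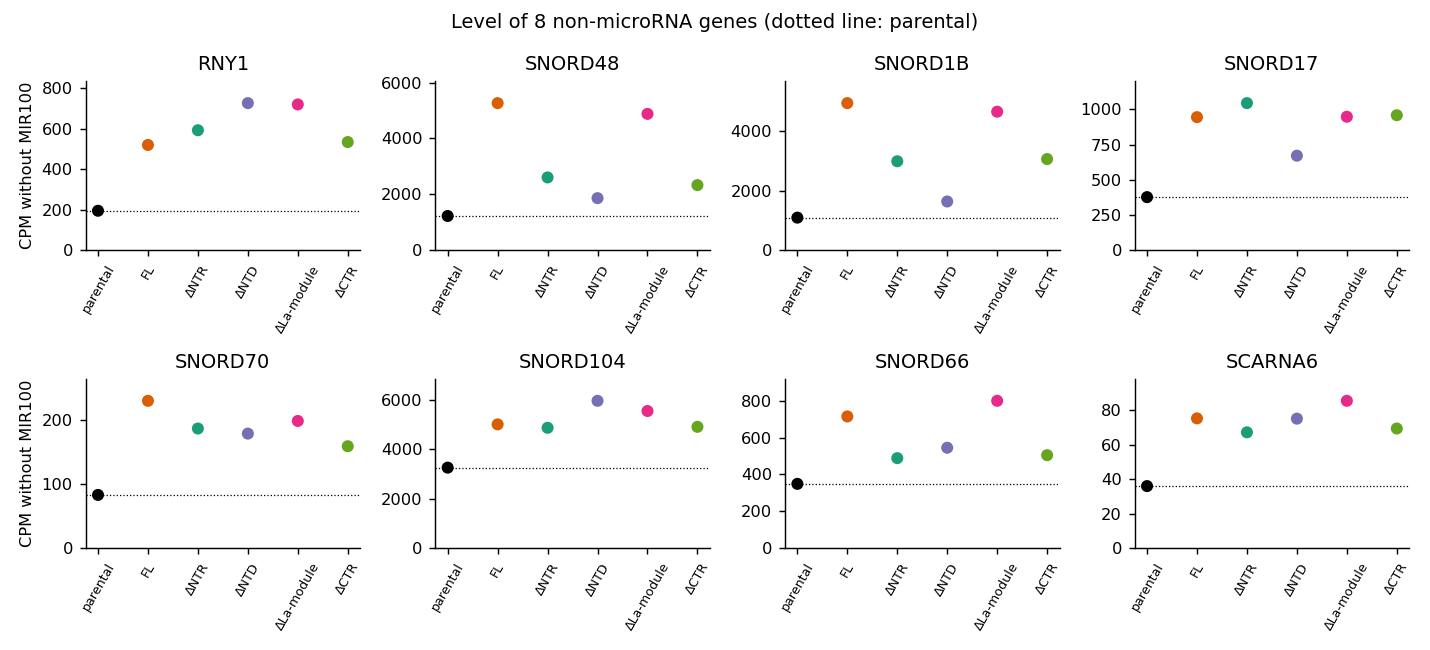
CPM (y axis, total without MIR100, from 0) of the Y RNA gene RNY1, 6 C/D box snoRNA genes and SCARNA6 in the 6 small RNA libraries; the dotted line is the parental value. All points of the 5 lines lie above it, and SNORD48 and SNORD1B are highest in FL and ΔLa-module (4656 to 5264 CPM).

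The host genes of these snoRNAs differed little. Among the 14 C/D box members with parental cells at the bottom, 8 had a single host with at least 50 long RNA counts, and the log2 change of those hosts lay between -0.28 and 0.26 in all lines while that of the snoRNAs lay between 0.19 and 2.17. NOP58, the host of SNORD70, had 2020 long RNA counts in parental cells and 1773 to 2385 in the lines. SNHG16, the host of SNORD1B, had 5847 in parental cells and 5580 to 7297 in the lines. By host group, 5 of the members with 1 host lay in SNHG genes, with parental cells below all lines for 3. Another 4 lay in ribosomal protein genes, with parental cells inside the range of the lines for each. No member with 1 host lay in GAS5 or SNHG1. The 11 members with several hosts were left out of these groups.

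Not every snoRNA followed. SNORD37, in an intron of EEF2, was 347 CPM in the parental cells, 230 in FL, 140 in ΔNTR, 496 in ΔNTD, 195 in ΔLa-module and 462 in ΔCTR, lower in 3 lines and higher in 2. The other 12 C/D box members with parental cells inside the range had log2 changes between -1.04 and 1.44. The 4 H/ACA box members had medians between -0.24 and 0.43. Of these, SNORA77 was 78.0 CPM in parental cells and 108 to 159 in the lines. SNORA74A was 65.2 CPM in parental cells and 63.2 to 114 in the lines, and SNORA73B was 87.5 CPM in parental cells and 40.1 to 112. SNORA58, the other one, was 39.5 CPM in parental cells and 24.2 to 48.7 in the lines.

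Among the scaRNAs, SCARNA6 alone lay outside the range of the lines. It was 36.0 CPM in the parental cells, 75.3 in FL, 67.2 in ΔNTR, 75.2 in ΔNTD, 85.5 in ΔLa-module and 69.4 in ΔCTR, where the counts ran from 113 to 227. Its host ATG16L1 had 1443 long RNA counts in parental cells and 1087 to 1371 in the lines. SCARNA3 was 80.8 CPM in parental cells and 66.9 to 91.0 in the lines, and SCARNA7 was 45.2 CPM in parental cells and 29.9 to 72.2. SCARNA14 had log2 changes between -0.40 and 0.34.

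Of all members with parental cells at the bottom, RNY1 (chr7:148987136-148987248, minus strand) was raised most in its least-changed line. RNY1 encodes the Y1 RNA, a partner of the Ro60 protein. It was 195 CPM in the parental cells, 520 in FL, 592 in ΔNTR, 726 in ΔNTD, 719 in ΔLa-module and 534 in ΔCTR, from counts of 613 in parental cells and 1046 to 2193 in the lines. The smallest difference was 2.66-fold, in FL, and the largest 3.72-fold, in ΔNTD. Against the total with MIR100 the log2 change in FL was 1.10, and with TMM factors it was 1.19 to 1.82 over the 5 lines.

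The other Y RNA genes did not follow RNY1. RNY3 was 57.6 CPM in parental cells and 45.4 to 76.2 in the lines. The 3 members annotated as Y_RNA, copies elsewhere in the genome, were all highest in parental cells. The largest of them, ENSG00000222649, was 7587 CPM in the parental cells, 7212 in FL, 4365 in ΔNTR, 5380 in ΔNTD, 5971 in ΔLa-module and 6719 in ΔCTR. Reads shared by near-identical copies map to several places and were not counted, so which copy a Y RNA read came from is uncertain. Of the vault RNA genes, VTRNA1-2 was 176 CPM in parental cells and 193 to 265 in the lines, although it was lower in FL and ΔLa-module with MIR100 in the total (log2 change of -0.19 and -0.08). VTRNA1-1 was 99.0 CPM in parental cells and 77.6 to 128 in the lines.

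The iCLIP data offered another readout of the same genes, as lists of LARP6 peaks pooled over 3 replicates from which the parental peaks had been subtracted. Of 14334 FL peaks, 4 lay on members with at least 1 shared base on the same strand. These members were RNY1, RNY3, MIR320A and SNORD13. The FL peaks on RNY1 and RNY3 each had a score of 19 and were 18 bases long, of which 8 and 7 bases were the first bases of the gene and 10 and 11 lay before it. The ΔCTR list held 3 such peaks of 15870, on RNY1 with a score of 21, on RNY3 with 7 and on MIR320A with 3, and the ΔNTR list held 1 of 17180, on RNY3 with 7. The much shorter ΔLa-module list held 2 such peaks of 636, on RNY3 and VTRNA1-2, each with a score of 4. The ΔNTD list held 1 of 291, on RNY1 with a score of 3. None of the 12 microRNA members of 14q32 and none of the 14 C/D box snoRNAs with parental cells at the bottom had a peak. As only 4 of all 216 members had an FL peak, this does not set these genes apart.

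Of the microRNA families in the gene lists, the one that holds MIR100 came first by counts. Of 4 members of the miR-100 and miR-10 family, none was 2-fold from parental cells in any line. MIR10B was 75090 CPM in the parental cells, 100172 in FL, 64623 in ΔNTR, 59936 in ΔNTD, 84856 in ΔLa-module and 70718 in ΔCTR. MIR99A was 29635 CPM in the parental cells, 39276 in FL, 21684 in ΔNTR, 28839 in ΔNTD, 32067 in ΔLa-module and 23039 in ΔCTR. MIR99B was 47395 CPM in the parental cells, 59585 in FL and 61721 in ΔLa-module, and 40823 to 50560 elsewhere. The members with the seed of miR-100 thus had their highest values in the same 2 libraries as MIR100 itself, but with MIR100 in the total MIR99B was highest in ΔNTD (log2 change of 0.18) and MIR99A was lower than in parental cells in ΔLa-module (-0.10). Across the miR-100, let-7 and miR-125 loci, the 7 members had medians between -0.17 and 0.19.

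MIR221 and MIR222, which target the cell cycle inhibitor p27 and are abundant in glioblastoma, share the seed GCUACAU. MIR222 was 89578 CPM in the parental cells, 94305 in FL, 114727 in ΔNTR, 138421 in ΔNTD, 111668 in ΔLa-module and 97649 in ΔCTR. MIR221 was 45810 CPM in parental cells and 44525 to 54988 in the lines. MIR222 was thus lowest in parental cells and MIR221 inside the range of the lines, and with MIR100 in the total MIR222 was inside it as well, with a log2 change of -0.24 in FL.

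The let-7 family, which represses growth genes, had 5 members with medians between -0.27 and 0.02. Reads that map to several genes of the family were not counted. MIRLET7G was 118407 CPM in parental cells and 93341 to 119870 in the lines. MIRLET7F2 was 6059 CPM in the parental cells, 8502 in FL and 9203 in ΔLa-module, and 4812 to 6325 in the other lines. The miR-30 list had 5 members with medians between -0.20 and 0.07, and MIR30D was 36741 CPM in parental cells and 39066 to 43948 in the lines, although with MIR100 in the total its log2 change in FL was -0.23. The 3 members of the miR-17-92 clusters had medians between -0.20 and -0.09, and MIR25 was highest in parental cells without and with MIR100 in the total and with TMM factors, but not when scaled to all uniquely mapped reads, where its log2 change in ΔNTD was 0.24. In the miR-23/27/24 list, MIR27B was 85889 CPM in parental cells and 60521 to 79588 in the lines, and MIR23B was 6168 and 4703 to 5610. MIR27B was inside the range of the lines with MIR100 in the total, where its log2 change in ΔNTR was 0.02.

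The miR-181 genes were lower in several lines. All 6 annotated genes were members, and parental cells were above all 5 lines for 5 of them (background 17.1%). The median log2 change was -0.65 in FL, -0.27 in ΔNTR, -0.24 in ΔNTD, -0.62 in ΔLa-module and -0.12 in ΔCTR. MIR181A1 was 6688 CPM in the parental cells, 3621 in FL, 4818 in ΔNTR, 5602 in ΔNTD, 3316 in ΔLa-module and 5784 in ΔCTR. MIR181A2, which gives the same mature 5p sequence, was 1762 CPM in parental cells and 1279 to 1835 in the lines, inside their range. Reads that map to both genes were not counted, so these values are not levels of the shared 5p microRNA. The number with parental cells on top was 3 with MIR100 in the total (background 12.4%) and 6 with TMM factors (background 27.6%).

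A further set of microRNAs was low in FL and ΔLa-module and close to parental cells elsewhere. MIR4521 was 4227 CPM in the parental cells, 4441 in ΔNTR, 3910 in ΔNTD and 4036 in ΔCTR, but 1519 in FL and 1536 in ΔLa-module. MIR29A, whose family targets collagen mRNAs, was 44170 CPM in parental cells and 40432 to 42150 in ΔNTR, ΔNTD and ΔCTR, but 27031 in FL and 22233 in ΔLa-module. It was 2-fold lower in those lines with MIR100 in the total (log2 change of -1.03 and -1.20) and not without it (-0.71 and -0.99). MIR93 was 8685 CPM in parental cells and 7294 to 8053 in ΔNTR, ΔNTD and ΔCTR, but 4440 in FL and 4495 in ΔLa-module, while its cluster neighbours MIR25 and MIR106B stayed within 27100 to 32225 and 8202 to 8732 CPM in all 6 libraries.

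Other members were higher in those 2 libraries. MIR148A was 383 CPM in the parental cells, 437 in ΔNTR, 339 in ΔNTD and 465 in ΔCTR, but 1075 in FL and 751 in ΔLa-module. MIR151A was 19064 CPM in parental cells and 16529 to 21673 in ΔNTR, ΔNTD and ΔCTR, but 37286 in FL and 31377 in ΔLa-module. Of the 160 microRNA members outside 14q32, 13 were 2-fold higher and 9 lower in FL (background 9.32 and 4.66%) and 6 higher and 11 lower in ΔLa-module (background 8.07 and 6.21%). In ΔNTR, ΔNTD and ΔCTR, 0 were 2-fold higher (background 4.35 to 4.97%) and at most 1 was lower (background 0.311 to 3.73%). Including MIR100 in the total gave 4 higher and 20 lower in FL (background 4.04 and 10.6%) and 4 higher and 22 lower in ΔLa-module (background 4.66 and 10.6%). Elsewhere it gave at most 1 in either direction (background 5.59 to 8.39% higher and 0.311 to 3.42% lower). TMM factors gave 7 lower in ΔNTD, where 21 of all 322 genes with the minimum were lower. Which of these differences belong to the libraries and which to the lines cannot be told apart with 1 library per line.

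MIR7974 was raised in all 5 lines. It was 611 CPM in the parental cells, 1609 in FL, 1003 in ΔNTR, 952 in ΔNTD, 1437 in ΔLa-module and 846 in ΔCTR. MIR3662 had 73 counts in parental cells and log2 changes of 0.47 to 1.67, and was named after its values were seen. In the mesenchymal list MIR146B, an inflammation-responsive microRNA, was 756 CPM in parental cells and 845 to 932 in the lines, but lower in FL with MIR100 in the total (log2 change of -0.16). MIR449A, the 1 member of the miR-34 and miR-449 list, was 41.7 CPM in parental cells and 49.8 to 57.8 in the lines.

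Only 5 members had at least 50 counts in all 6 long RNA libraries, too few for a correlation, so their changes are set side by side. SNORD17 had 68 long RNA counts in the parental cells, 92 in FL, 74 in ΔNTR, 83 in ΔNTD, 99 in ΔLa-module and 71 in ΔCTR. Its log2 change there was 0.05 to 0.44, each with an interval that included 0, against 0.83 to 1.47 in small RNA. The other 4 were MIR221, MIRLET7A2, SNORA73B and SCARNA7, whose long RNA changes lay between -0.55 and 0.22 and whose small RNA changes lay between -1.13 and 0.68.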

How the data were processed

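Per the labels and the study's methods, the authors trimmed the reads with Trim Galore (0.6.10), aligned them with STAR (2.7.10b) to GRCh38.p13 with GENCODE v42 and deposited raw counts per gene in 3 columns. The forward column was used for small RNA and the reverse column for long RNA. STAR counts no read that maps to several places (13.6 to 18.5% of small RNA reads) or overlaps exons of 2 genes (40.4 to 54.0%), so microRNA genes inside host exons can be listed at 0: MIR21, MIR24-1, MIR34A and MIR155 were at 0 in all 6 libraries. Of 1099 microRNA genes at 0 in all libraries, 30.7% shared an exon with another gene on their strand, against 6.98% of members. Where several genes give the same mature sequence, its reads map to several places, and the counts of such genes do not measure the shared microRNA. Gene types and positions are from GENCODE v44, which matched 62625 of 62750 identifiers. The deposited iCLIP peak lists, called by the authors per replicate, merged over 3 replicates and cleared of parental peaks, carry the peak score that the authors summed when merging.

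CPM used gene counts without MIR100. The log2 ratios carry no pseudocount, and edgeR (4.0.16) TMM and DESeq2 (1.42.0) size factors were alternatives. Scripts ran in Python 3.11.15 with bedtools 2.31.1 and were tested on simulated counts. Named genes were the 12 members with the highest mean CPM, up to 12 per direction outside the range of the lines with the largest change in the least-changed line, the 3 highest and lowest of each line, the 3 highest of each list, those at the count minimum, and MIR100; genes outside this rule were named after their values were seen. The lists of spliceosomal, U7, 7SL and 7SK RNA had 0 members. The members and lists were chosen with earlier results of these data known.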

Additional observations from a re-analysis of the deposited data

How the results depend on the processing

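With 1 library per line no value has a replicate error, the FL and ΔLa-module libraries stood apart, and the parental library entered every comparison. No paired analysis was possible because the libraries compared share only replicate number 1. For the named genes, no called value changed sign under another scaling, the unstranded column or a pseudocount, the only alternatives run for single genes. Rescaling shifts all genes of a line by the same amount, here less than 2-fold, so it could not reverse a called value. Of 243 recomputed counts, medians, shares and correlations, 91 moved. The cause was not tested, except that a lower minimum or threshold admits more genes by construction.

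With MIR100 in the total, the medians were -0.34 in FL, 0.12 in ΔNTR, 0.06 in ΔNTD, -0.31 in ΔLa-module and -0.01 in ΔCTR. The members higher numbered 9 in FL and 11 in ΔNTR, and those lower 32 in FL and 30 in ΔLa-module. With edgeR TMM factors the medians were -0.17 in FL, -0.26 in ΔNTD and -0.32 in ΔCTR, 12 members were higher in FL and 4 in ΔNTD, and 5 were lower in ΔNTR, 20 in ΔNTD and 9 in ΔCTR. DESeq2 size factors gave medians of -0.17 in FL, -0.24 in ΔNTD and -0.25 in ΔCTR, 12 higher in FL and 4 in ΔNTD, and 20 lower in ΔNTD and 6 in ΔCTR. The share over all genes was not computed with these factors, for uniquely mapped reads or in the unstranded column. Scaled to all uniquely mapped reads, the medians were 0.01 in ΔNTR, 0.34 in ΔNTD and 0.02 in ΔLa-module, 24 members were higher and 4 lower in ΔNTD, and parental cells were above all 5 lines for 26 and below them for 49, so that the larger of these 2 numbers changed sides. MIR100 then took 25.1% in the parental cells, 33.3% in FL, 22.0% in ΔNTR, 29.8% in ΔNTD, 33.4% in ΔLa-module and 24.1% in ΔCTR. In the unstranded column it took 71.5, 77.4, 67.9, 69.7, 75.7 and 70.2% in the same order, and 0 members were lower in ΔCTR.

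The thresholds are given in the order FL, ΔNTR, ΔNTD, ΔLa-module, ΔCTR. No share over all genes was computed at other thresholds or minimum counts, so these numbers have no background. At 1.5-fold, 38, 20, 27, 33 and 20 members were higher and 35, 19, 26, 53 and 13 lower. At 3-fold, 2, 1, 1, 4 and 1 were higher and 1, 0, 2, 2 and 0 lower. A minimum of 10 counts gave 344 members. Of these, 32, 15, 21, 23 and 16 were higher and 24, 14, 19, 31 and 10 lower. Parental cells were below all 5 lines for 57. Asking for 50 counts in only 1 library, with a pseudocount of 1 CPM, gave 293 members. Of these, 23, 11, 19, 30 and 10 were lower, 18 were higher in ΔNTD and 11 in ΔCTR. A minimum of 100 left 171 members, with 6 higher in ΔNTD and 0 lower in ΔCTR. A minimum of 200 left 139 members. Of these, 13 were higher in FL, 2 in ΔNTD, 9 in ΔLa-module and 3 in ΔCTR. Lower were 8 in FL, 8 in ΔLa-module and 0 in ΔCTR, and 23 had parental cells below all lines. Leaving out 1 line at a time gave 38 to 41 members with parental cells below and 52 to 65 above the remaining lines. The background was then 26.7 to 29.5% below and 17.7 to 22% above. Without the FL and ΔLa-module libraries, an alternative chosen after seeing the data, 52 lay below and 70 above (background 33.5 and 24.8%). Leaving out lines can only raise these numbers. The same-gene comparison of small and long RNA was not run as a correlation, since 5 members had at least 50 long RNA counts in every library and 2 at least 200.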

Other observations

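MicroRNAs known as markers of other cell types were read in the same libraries. The liver microRNA gene MIR122, the blood genes MIR142, MIR223, MIR451A and MIR144 and the neuronal genes MIR124-1, MIR124-2 and MIR124-3 had 0 counts in all 6 libraries. A gene inside a host exon can be listed at 0 for that reason alone. So can genes that share a mature sequence, as the 3 MIR124 genes do, so their 0 counts do not show absence. MIR126, typical of endothelial cells, had 157 to 289 counts and the blood gene MIR150 38 to 101. Of the epithelial genes, MIR200C had 282 to 571, MIR200B 87 to 153, MIR200A 13 to 38, MIR141 1 to 12, MIR205 1 to 4 and MIR429 0 to 2. Of the other neuronal genes, MIR132 had 397 to 878 counts, MIR9-1 0 to 1, and MIR9-2 and MIR9-3 had 0. MIR128-1, abundant in neurons, had 1714 to 3209 counts, and 1021 CPM in the parental cells against 848 to 1171 in the lines.

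The neighbouring microRNA genes MIR450B, MIR542, MIR503 and MIR424 on the X chromosome were also highest in parental cells (chrX:134540185-134546711, minus strand). Their median log2 change was -0.21 in FL, -0.18 in ΔNTR, -0.67 in ΔNTD, -0.38 in ΔLa-module and -0.20 in ΔCTR. When MIR100 was in the total, parental cells were above all 5 lines for MIR450B and MIR503 and inside their range for MIR542 and MIR424. These neighbours were named after their values were seen. With the total without MIR100, parental cells were on top for 17.1% of all genes and 26.7% of microRNA members. They were also on top for 4 of the 5 X chromosome neighbours MIR532, MIR500A, MIR362, MIR501 and MIR660. The snoRNA genes SNORD6, SNORD83A and SNORD41 were highest in ΔNTD. SNORD6 was 93.9 CPM in the parental cells, 254 in ΔNTD and 52.4 to 134 in the other lines. SNORD83A was 89.5 CPM in the parental cells, 188 in ΔNTD and 47.1 to 57.2 in the other lines. SNORD41 was 159 CPM in the parental cells, 294 in ΔNTD and 148 to 195 in the other lines.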
